A study of Mus musculus with 4 samples.

Results

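The barcodes described here were chosen by their UMIs (unique molecular identifiers, counts of captured RNA molecules) of 4 genes of the primary neutrophil granule, Mpo, Elane, Prtn3 and Ctsg. A barcode was a member when these 4 genes together had 3 or more UMIs, when C1qa, C1qb and C1qc had fewer than 3, when Camp, Ngp and Ltf had fewer than 3, and when Cd3d, Cd3e, Cd3g and Cd79a had 0. It also needed 500 or more UMIs, 200 or more genes and a mitochondrial share under 20%. Of 36150 barcodes that met the limits on UMIs, genes and mitochondrial share, 187 were members, which is 0.517% (0.446 to 0.597%, exact Clopper-Pearson 95% interval). The working name of the set was granulocyte-monocyte progenitors in liver. The data went against that name for most members: 138 of the 187 carried UMIs of Prtn3 only, with 0 UMIs of Mpo, Elane and Ctsg, so the whole set is called the primary granule barcodes here. All intervals given here cover counting error only.

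The study sequenced single-cell suspensions of mouse liver from a gene-induced model of hepatocellular carcinoma with droplet 3′ RNA sequencing. The labels give 3 tumor samples, dissected at weeks 4, 8 and 10, and 1 normal liver sample, dissected at week 0. The series text gives week 12 in place of week 10 for the last stage. Strain, age, sex, inducing genes and any pooling of animals are not given in the sources used here. All counts form 1 pooled matrix whose barcodes carry suffixes 1 to 4, called libraries 1 to 4 here. No source ties a suffix to a sample, so no week is given to any library and tumor was not compared with normal liver. The libraries held 9151, 8125, 10176 and 8698 analysed barcodes, with median depths of 1307, 3376, 1321.5 and 2574.5 UMIs. With 1 pooled matrix there are no replicates, cells of 1 library are not replicates of a condition, and no p-value is given anywhere.

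Neutrophils and monocytes arise in the bone marrow from a shared granulocyte-monocyte progenitor. At the promyelocyte stage the cell fills its primary (azurophil) granules with serine proteases and myeloperoxidase. Transcription of these genes falls as the secondary granule genes come on, so their mRNA marks mainly a short window of maturation. Barcodes with UMIs of both kinds were also found here and are given with those that the rule left out. In the adult such cells are rare outside marrow, although the liver is a blood-forming organ before birth and can host blood formation again under stress.

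The 4 genes that chose the members encode the contents of that granule. Mpo encodes myeloperoxidase, the haem enzyme that makes hypochlorous acid. Elane encodes neutrophil elastase, Prtn3 proteinase 3 and Ctsg cathepsin G, all serine proteases. The 150 bases before the annotated start of each gene are shown because the 4 genes were found together in some members and Prtn3 alone in most. They come from RefSeq on GRCm38.p6, where all 4 symbols matched, are read 5′ to 3′ on the gene's strand, and are not in the build named in the labels. The Mpo window is chr11:87793634-87793783 on the plus strand. The Elane window is chr10:79886162-79886311 and the Prtn3 window chr10:79879517-79879666, both on the plus strand, so these genes are neighbours. The Ctsg window is chr14:56102575-56102724 on the minus strand. Capitals mark matches, on either strand, to motifs of 4 factors of blood cells: GAGGAA for PU.1, TTNNGNAA for C/EBP, AACNG for Myb and TGTGGT for Runx.
Mpo: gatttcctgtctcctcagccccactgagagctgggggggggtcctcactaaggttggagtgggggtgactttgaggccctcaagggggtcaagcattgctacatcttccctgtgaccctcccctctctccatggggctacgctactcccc
Elane: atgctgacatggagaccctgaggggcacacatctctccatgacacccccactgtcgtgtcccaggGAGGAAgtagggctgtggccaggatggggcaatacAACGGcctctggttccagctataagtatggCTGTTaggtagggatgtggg
Prtn3: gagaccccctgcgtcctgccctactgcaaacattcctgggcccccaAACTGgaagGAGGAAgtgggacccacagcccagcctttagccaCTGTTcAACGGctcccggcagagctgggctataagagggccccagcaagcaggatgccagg
Ctsg: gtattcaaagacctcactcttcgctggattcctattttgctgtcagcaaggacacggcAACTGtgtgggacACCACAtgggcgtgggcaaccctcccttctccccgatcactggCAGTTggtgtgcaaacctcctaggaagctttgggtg
The Elane and Prtn3 windows each held the PU.1 letters, starting 85 and 95 bases before the start site. Those letters occurred in 14.5% of 32843 promoter windows of the same length. The Myb letters occurred at 2 places in the Elane window, 3 in the Prtn3 window and 2 in the Ctsg window, against 55.1% of all windows with any match. The Runx letters occurred only in the Ctsg window of these 4, against 8.4% of all windows. The C/EBP letters were in none of the 4 windows and in 22.7% of all windows, and the Mpo window held none of the 4 motifs. No motif overlapped another.

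The members were unevenly spread over the libraries: 1 in library 1, 103 in library 2, 41 in library 3 and 42 in library 4. As shares of analysed barcodes these are 0.0109%, 1.27%, 0.403% and 0.483%, and without library 2 the share over all libraries was 0.3%. The members were deep, with a median of 15362 UMIs (range 1505 to 74234), against 1760 in all 35963 other analysed barcodes. A rule that asks for a fixed number of UMIs is met more easily by a deep barcode, and the part of depth in the members' shares was not tested. By granule UMIs, 113 members had 3 or 4, 31 had 5 to 9, 14 had 10 to 29, 12 had 30 to 99 and 17 had 100 or more.

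The threshold of 3 UMIs did not fall in a gap. Just inside it, 86 barcodes had exactly 3 granule UMIs, and 83 of them (96.5%) carried Prtn3 alone. Just outside it, 186 barcodes had 2 granule UMIs, and 177 of them (95.2%) carried Prtn3 alone. Inside the threshold the median depth was 14075.5 UMIs, against 8361 just outside. A list of 20 hepatocyte genes, such as Alb, Apoa1 and Ttr, supplied a median of 4.64% of UMIs inside and 5.17% outside.

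Different kinds of member could be told apart by the number of the 4 genes they carried. The 138 Prtn3-only members (1, 86, 39 and 12 in libraries 1 to 4) held 559 Prtn3 UMIs in all, and 5 of them had 10 or more. A second set, called granule-rich here, had 10 or more granule UMIs from 2 or more of the 4 genes. It was chosen after the values were seen, and holds 38 barcodes, which is 0.105% of those analysed (0.0744 to 0.144%). The granule-rich barcodes were in library 2 (12) and library 4 (26). Library 1 had 0 of 9151 and library 3 had 0 of 10176, which allows shares of up to 0.0328% and 0.0295%, taking 3 barcodes as the limit that a count of 0 allows. The remaining 11 members had 3 to 9 UMIs of several of the genes.

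Hepatocyte RNA separated these kinds. The 20 hepatocyte genes gave a median of 0.23% of UMIs in the granule-rich barcodes and 4.44% in the Prtn3-only members. Of the granule-rich barcodes, 35 of 38 were under 1%, against 18 of 138 Prtn3-only members. A share of 1% or more was common in the matrix. Of all 36150 analysed barcodes, 27081 outside the granule-rich set had it, and the median of all analysed barcodes was 2.69%. Median depth was similar, at 12493 UMIs in granule-rich barcodes and 16185 in Prtn3-only members. Ptprc, which encodes the leukocyte antigen CD45, had a UMI in 27 of the 38 granule-rich barcodes. Among Prtn3-only members it was looked up only in the one of library 1, which had 1 UMI, and in 5 others. These 5 had 10 or more Prtn3 UMIs and 0 UMIs of Ptprc. Of these 5, the first 4 were in library 2 and had 16, 13, 11 and 10 Prtn3 UMIs, and the last was in library 3 and had 10. Their hepatocyte shares were 3.44%, 6.49%, 5.47%, 0.0619% and 10.5%. The one at 0.0619% carried 370 UMIs of Pf4, the platelet chemokine gene of megakaryocytes. Of the 18 Prtn3-only members under 1% hepatocyte RNA, 7 had 20 or more UMIs of the lysozyme gene Lyz2 and 2 had 20 or more of Pf4.

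**Figure D1:**
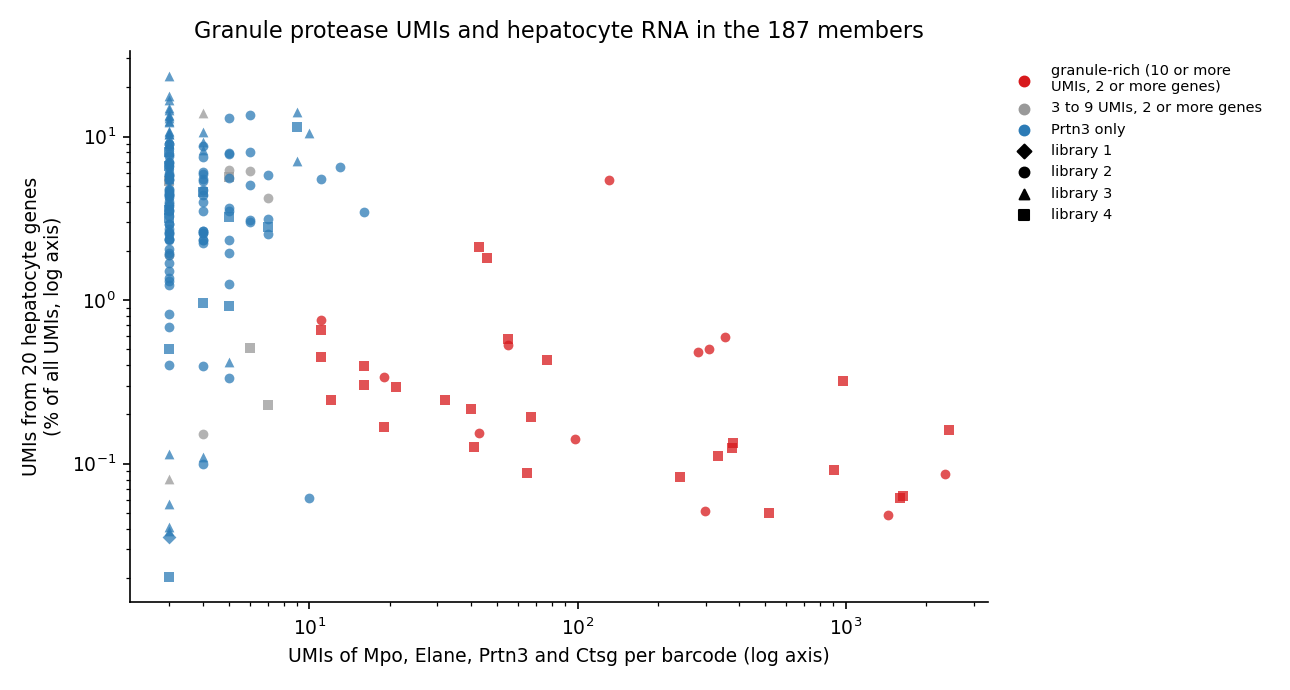
Each point is 1 of the 187 members, placed by its UMIs of Mpo, Elane, Prtn3 and Ctsg (horizontal, log axis) and by the share of its UMIs from 20 hepatocyte genes (vertical, percent, log axis), with colour for the kind of member and shape for the library. Most of the 138 Prtn3-only members lie left of 10 UMIs and above 1% hepatocyte RNA, and 35 of the 38 granule-rich barcodes lie below 1%.

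UMIs of Prtn3 with few of its partner genes were also found over all barcodes with hepatocyte RNA, members among them. Barcodes with 1% or more hepatocyte RNA, leaving out the granule-rich ones, had Prtn3 at 1.16, 25.4, 40.2 and 8.09 CPM (a gene's UMIs as counts per 1000000 UMIs of the set) in libraries 1 to 4. This set includes the 120 Prtn3-only members with 1% or more hepatocyte RNA (0, 79, 33 and 8 in libraries 1 to 4). Its Prtn3 level is therefore partly that of members chosen by Prtn3. The granule-rich barcodes of library 2 held 1629 UMIs of Prtn3, 1708 of Elane, 1427 of Mpo and 624 of Ctsg. In library 2 the hepatocyte-RNA barcodes held 975 UMIs of Prtn3, 39 of Elane, 2 of Mpo and 2 of Ctsg. In library 3 they held 773 of Prtn3, 10 of Elane, 0 of Mpo and 0 of Ctsg. Prtn3 was thus nearly alone among the 4 genes in the hepatocyte-RNA barcodes of libraries 2 and 3. In library 4 these barcodes held 272 UMIs of Prtn3, 83 of Elane, 40 of Mpo and 4 of Ctsg. They include 25 barcodes that the rule left out for Camp, Ngp and Ltf. The library 4 hepatocyte-RNA barcodes with 10000 or more UMIs held 93 of Prtn3, 7 of Elane, 1 of Mpo and 0 of Ctsg. In library 1 the hepatocyte-RNA barcodes held 11 of Prtn3, 6 of Elane and 0 of the other genes.
Lymphocyte barcodes (2 or more UMIs of Cd3d, Cd3e, Cd3g and Cd79a) held less Prtn3 in libraries 2 and 3. There were 3775 of them, against 27081 hepatocyte-RNA barcodes. The sets were not made exclusive, so a lymphocyte barcode with 1% or more hepatocyte RNA counts in both. In library 2, Prtn3 was at 25.4 CPM (23.8 to 27, exact Poisson 95% interval) in hepatocyte-RNA barcodes and 8.02 CPM (5.28 to 11.7) in lymphocyte barcodes. In library 3 it was at 40.2 CPM (37.4 to 43.1) in hepatocyte-RNA barcodes and 10.6 CPM (6.89 to 15.5) in lymphocyte barcodes. These differences are larger than counting error. In library 4 the order was the other way, at 8.09 CPM (7.15 to 9.11) in hepatocyte-RNA barcodes and 198 CPM (177 to 221) in lymphocyte barcodes, where a single barcode held 1648 granule UMIs. In library 1 the intervals overlapped, at 1.16 CPM (0.577 to 2.07) and 0.486 CPM (0.0123 to 2.71) in the same order. The source of the Prtn3 UMIs was not tested.
Depth moved with the number of hepatocyte-RNA barcodes past the threshold. Of those with 10000 or more UMIs, 4.64% had 3 or more granule UMIs, against 0.021% of those under 2000 UMIs. For the deep barcodes of libraries 1 to 4 the shares were 0%, 6.82%, 6.99% and 1.03%. Their Prtn3 level over all libraries was 22.7 CPM in the deep and 15.1 CPM in the shallow barcodes, and in library 4 it was 7.04 CPM in the deep and 7.78 CPM in the shallow ones.

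**Figure D2:**
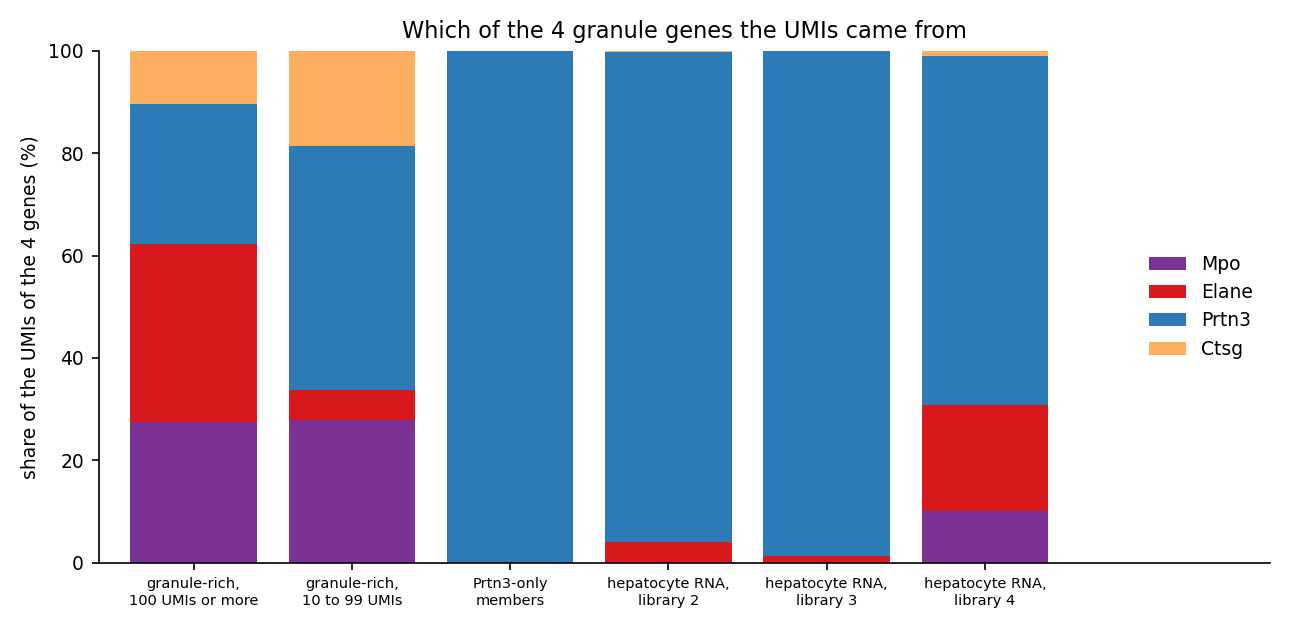
Stacked bars give the share (percent) of the UMIs of the 4 granule genes that came from Mpo, Elane, Prtn3 and Ctsg, in granule-rich barcodes with 100 or more UMIs, in those with 10 to 99, in Prtn3-only members and in hepatocyte-RNA barcodes of libraries 2 to 4. Prtn3 makes up 27.5%, 47.7% and 100% in the first 3 bars and is the largest part of each hepatocyte-RNA bar. Mpo is a visible part of the granule-rich bars and of library 4 only. The hepatocyte-RNA bars include Prtn3-only members and, in library 4, 25 barcodes that the rule left out for Camp, Ngp and Ltf.

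The rest of the account is about the 38 granule-rich barcodes, since they held 15345 of the members' 15957 granule UMIs. Their levels of the 4 rule genes are a description, because those genes chose them. Elane had 5093 UMIs (33.2% of the 4 genes), Prtn3 4381 (28.6%), Mpo 4220 (27.5%) and Ctsg 1651 (10.8%). Mpo was at 7215 CPM in library 2 and 8087 CPM in library 4, and Elane at 8636 and 9801 CPM. Granule UMIs per 10000 UMIs ran from 17.6 to 1030 with a median of 73.2. The barcode with the most granule UMIs was in library 4 and had 630 of Mpo, 921 of Elane, 647 of Prtn3 and 231 of Ctsg among 25001 UMIs. The next, in library 2, had 731, 897, 503 and 219 among 29010 UMIs. Elane was the most abundant of the 4 in the richest barcode of both libraries. Of the surface genes that define granulocyte-monocyte progenitors in marrow, Cd34 had a UMI in 22 of the 38 and Kit in 16, and these barcodes are given no cell type name here.

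The mix of the 4 genes differed with their sum. These values describe the split, since Elane and the other 3 genes make up the sum that defines it. In the 17 barcodes with 100 or more granule UMIs, Elane supplied 34.7% of the granule UMIs, against 5.89% in the 21 barcodes with 10 to 99. All 17 rich barcodes carried all 4 genes, against 10 of 21 with Elane and 15 of 21 with Mpo in the lower range. Ms4a3, a membrane protein gene used to trace progeny of granulocyte-monocyte progenitors in mice, was not used by the rule and had a UMI in 17 of 17 rich barcodes and in 2 of 21 below. Its level was 770 CPM in the rich barcodes and 48.9 CPM in the lower range. In the lower range 9 of its UMIs were in the barcode with basophil genes described below, and 1 was in another barcode. Gfi1, which encodes a repressor needed for neutrophil formation, had a UMI in 9 of 17 rich barcodes and in 0 of 21 below. Cebpe, which encodes the factor that drives secondary granule genes, had a UMI in 7 of 17 and 2 of 21. Nkg7, a granule membrane protein gene of cytotoxic and early myeloid cells, was at 773 CPM in the rich barcodes and 117 CPM in the lower range. Depth moved with the granule UMIs, with a median of 17556 UMIs in the rich barcodes and 7903 in the lower range, and its part in these shares was not tested. After thinning every barcode to 1000 UMIs, Ms4a3 was seen in 21.1% of the 38 granule-rich barcodes, in 1.54% of 65 immature neutrophils and in 0% of 70 monocytes. These comparison sets are defined with the comparisons.

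**Figure D3:**
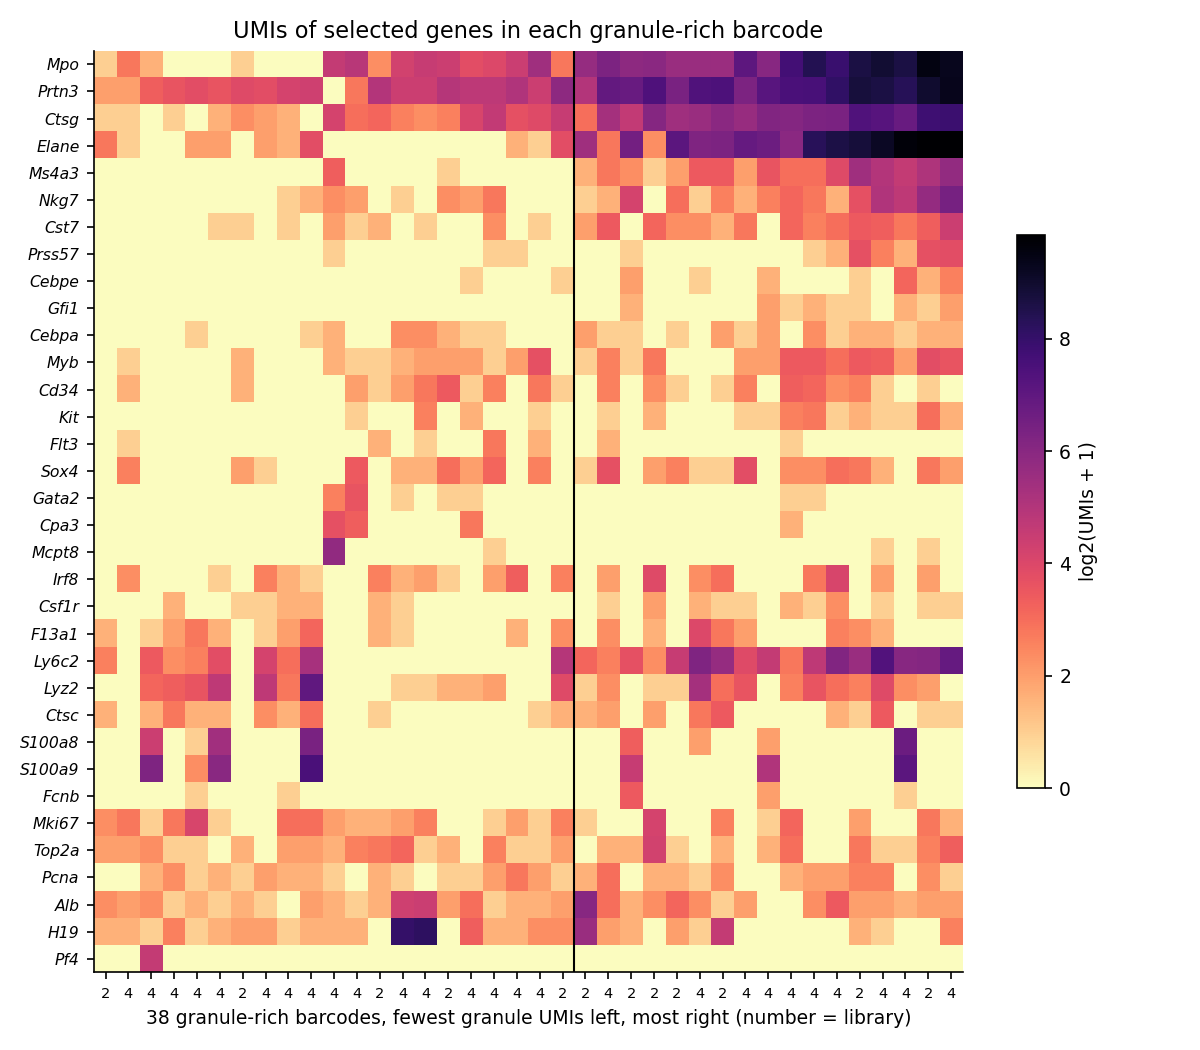
Colour gives log2(UMIs + 1) of selected genes in each of the 38 granule-rich barcodes, ordered from fewest granule UMIs at the left to most at the right, with the library number under each column and a line at 100 granule UMIs. Ms4a3 has a UMI in all 17 columns right of the line and Gfi1 in 9 of them, and the left holds a block with Ly6c2, Lyz2 and Ctsc next to a block with Myb, Cd34 and Sox4.

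The lower range held 2 patterns of other genes. They were found by looking at Ly6c2, which encodes a surface protein of monocytes and myeloid progenitors, and Cd34, a progenitor surface gene. Of the 21 barcodes, 8 had Ly6c2 without Cd34 (1 in library 2, 7 in library 4), 10 had Cd34 without Ly6c2 (3 in library 2, 7 in library 4), 1 had both and 2 had neither. In the 17 rich barcodes Ly6c2 was in all and Cd34 in 11. The split was made after the values were seen, so what follows is a description. Depth differed too, with a median of 5558.5 UMIs in the Ly6c2 barcodes and 10849.5 in the Cd34 barcodes. The mitochondrial share ran from 0.59 to 12.4% in the Ly6c2 barcodes and from 0.672 to 7.29% in the Cd34 barcodes, of which 9 of 10 were under 2%. Of the Cd34 barcodes, 2 of library 4 had hepatocyte shares of 2.11 and 1.82%. These 2 had 258 and 285 UMIs of H19, a gene of the tumor hepatocyte list. The Ly6c2 barcode with a mitochondrial share of 12.4% had 23 UMIs of Pf4. The part of depth, of the mitochondrial share and of these barcodes in the differences was not tested.

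The granule genes themselves differed between the 2 patterns. Mpo had 3 UMIs in 2 of the 8 Ly6c2 barcodes and 169 UMIs in 10 of the 10 Cd34 barcodes. Elane went the other way, with 30 UMIs in 6 of 8 Ly6c2 barcodes and 2 UMIs in 2 of 10 Cd34 barcodes. Prtn3 was in every barcode of both patterns and supplied 69.6% of the granule UMIs in Ly6c2 barcodes and 43.1% in Cd34 barcodes. Ctsg supplied 6.52% in Ly6c2 barcodes and 19.3% in Cd34 barcodes.
Several genes of monocytes lay with Ly6c2, but Irf8, a factor of monocytes and dendritic cells, was in both patterns. Irf8 had 9 UMIs in 4 of 8 Ly6c2 barcodes and 18 UMIs in 6 of 10 Cd34 barcodes. Lyz2 had 211 UMIs in 7 of 8 Ly6c2 barcodes, 127 of them in 1 barcode, and 9 UMIs in 5 of 10 Cd34 barcodes. F13a1, the factor XIII subunit made by monocytes, had 26 UMIs in 8 of 8 Ly6c2 barcodes and 3 UMIs in 2 of 10 Cd34 barcodes. Ctsc, which encodes the protease that activates the granule proteases, had 27 UMIs in 8 of 8 and 2 UMIs in 2 of 10. S100a9, the calprotectin subunit gene of neutrophils and monocytes, had 327 UMIs in 4 of 8 Ly6c2 barcodes and 0 in the Cd34 barcodes. Of these 327, 185 were in 1 barcode and 76 in the barcode with Pf4 UMIs.
Genes of early progenitors lay with Cd34. Myb, a regulator of progenitor growth, had 0 UMIs in the 8 Ly6c2 barcodes and 29 UMIs in 10 of 10 Cd34 barcodes. Myc, the growth regulator, had 3 UMIs in 3 of 8 and 144 UMIs in 10 of 10. Sox4, a factor of immature cells, had 1 UMI in the Ly6c2 barcodes and 45 UMIs in 9 of 10 Cd34 barcodes. Lmo2, a bridging factor of blood progenitors, had 0 UMIs in the Ly6c2 barcodes and 36 UMIs in the Cd34 barcodes. The receptor genes Kit and Flt3, for stem cell factor and FLT3 ligand, had 0 UMIs in Ly6c2 barcodes, and 9 UMIs in 4 barcodes and 12 UMIs in 5 barcodes of the Cd34 pattern. Ccl4, a chemokine gene, had 3 UMIs in 2 of 8 Ly6c2 barcodes and 364 UMIs in 9 of 10 Cd34 barcodes.

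Single barcodes carried genes of further cell types. A library 4 barcode of 7903 UMIs had 733 UMIs of Prss34 and 55 of Mcpt8, both proteases of basophils, with 29 of the IgE receptor gene Fcer1a, 12 of Cpa3 and 5 of Gata2. Its granule UMIs were 23 of Mpo and 17 of Ctsg, with 0 of Elane and 0 of Prtn3. Another library 4 barcode of 6244 UMIs had 23 UMIs of Pf4 and 28 of Ppbp, both platelet chemokine genes. In the marker lists of other liver cells, 0 of 9 T cell genes, 0 of 7 natural killer cell genes and 0 of 7 stellate cell genes had a UMI in any granule-rich barcode. Of the T cell genes, Cd3d, Cd3e and Cd3g were set to 0 by the rule, which also held the C1q genes of the macrophage list under 3 UMIs. The 9 macrophage and Kupffer cell genes had 8 UMIs in all and the 8 erythroid genes 27. The 4 tumor hepatocyte genes had 686 UMIs, and 4 barcodes had 20 or more of H19. The 20 hepatocyte genes ran from 4.86 to 546 UMIs per 10000 over the 38 barcodes.

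The granule-rich barcodes were set against 2 nearby myeloid sets of the same matrix. The first was 70 immature neutrophils, taken as barcodes with 3 or more UMIs of the secondary granule genes Camp, Ngp and Ltf and fewer than 3 of the primary granule genes. The second was 70 monocytes, taken by 3 or more UMIs of Ly6c2, Ccr2 and F13a1 together, 1 or more of Csf1r and 0 of Siglech. Granule-rich barcodes had a median of 12493 UMIs, against 2457.5 in immature neutrophils and 3341 in monocytes. The hepatocyte list summed to 4695 CPM in granule-rich barcodes, 20018 CPM in immature neutrophils and 7686 CPM in monocytes. The part of depth and of hepatocyte RNA in the differences below was not tested. A gene was counted as higher or lower when its summed CPM differed 2-fold or more, with 100 or more UMIs over both sides and the same direction in each library with 10 or more barcodes of both sides, which were libraries 2 and 4. The granule-rich barcodes summed to 543172 UMIs, the immature neutrophils to 255367 and the monocytes to 306675, so a low gene could pass the limit of 100 UMIs through the granule-rich side alone. Counts over tested genes are therefore given as descriptions.

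Against immature neutrophils, most tested genes of the early myeloid, early progenitor, ribosome assembly and S phase lists were higher in granule-rich barcodes. All tested secondary and tertiary granule genes outside the rule were lower, between sets that Camp, Ngp and Ltf had already parted. Of 1136 genes tested, 425 (37.4%) were higher, 124 (10.9%) lower and 48.3% past 2-fold in either direction. The median log2 ratio over all genes tested was 0.70, so the higher direction was the common one. With TMM scaling, which shifted the median by -0.38, 288 were higher and 158 lower, 64.6% of the called genes against 77.4%. Without library 4, 252 genes were past 2-fold in place of 549. Against monocytes, 247 of 1245 genes tested (19.8%) were higher and 145 (11.6%) lower, 31.5% in either direction, with a median log2 ratio of 0.29. TMM scaling shifted that median by -0.19 and gave 186 higher and 175 lower, 51.5% of the called genes against 63.0%. Without library 2, 255 genes were past 2-fold in place of 392, and without library 4, 236.

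Among early myeloid genes, 6 of 8 tested were higher and 1 lower than in immature neutrophils. Low genes of this list could also be tested through the granule-rich side alone. Ms4a3 was at 499 CPM in granule-rich barcodes (441 to 562), 35.2 CPM in immature neutrophils (16.1 to 66.9) and 0 UMIs in monocytes. It was 14.2-fold higher than in immature neutrophils and at least 51.0-fold higher than in monocytes, by a floor of 3 counts over the group. Nkg7 was at 527 CPM in granule-rich barcodes, 11.7 in immature neutrophils and 26.1 in monocytes. Plac8, a gene of myeloid progenitors and monocytes, was at 2285 CPM in granule-rich barcodes, 137 in immature neutrophils and 1451 in monocytes, so it parted the granule-rich barcodes from neutrophils by 16.7-fold and from monocytes by 1.58-fold, which is under the limit. Hdc, the histamine-forming enzyme gene, was the exception, at 81.0 CPM in granule-rich barcodes and 615 CPM in immature neutrophils. Against monocytes, 5 of 7 tested were higher and none lower.

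Other genes of granules and lysosomes did not move as a group. Of 6 tested against immature neutrophils, 1 was higher and 1 lower; of 8 against monocytes, 3 were higher and 2 lower. Cst7, which encodes cystatin F, an inhibitor of the cathepsins that activate granule proteases, was at 232 CPM in granule-rich barcodes, 0 UMIs in immature neutrophils and 26.1 CPM in monocytes. Cd63, a membrane gene of azurophil granules and lysosomes, was at 300.1 CPM in granule-rich barcodes, 274 in immature neutrophils and 19.6 in monocytes. Serpinb1a, an inhibitor of the granule proteases, was at 337 CPM in granule-rich barcodes, 231 in immature neutrophils and 42.4 in monocytes. Prss57, which encodes a further protease of azurophil granules, had 51 UMIs (93.9 CPM, 69.9 to 123) in granule-rich barcodes and 0 UMIs in both other sets, and missed the limit of 100 UMIs. Srgn, which encodes serglycin, the proteoglycan that packs granule proteases, was at 1766 CPM in granule-rich barcodes, 920 in immature neutrophils and 1027 in monocytes, under 2-fold. Lyz2 was lower, at 639 CPM in granule-rich barcodes, 4777 in immature neutrophils and 10278 in monocytes.

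The early progenitor factors that could be tested were all on 1 side. These 4 of 12, Myb, Sox4, Lmo2 and Myc, were higher than in both other sets. In granule-rich barcodes they had 126, 114, 115 and 430 UMIs in that order. Each thus passed the limit on UMIs through that side alone. Their median log2 ratio was 3.82 against immature neutrophils and 3.80 against monocytes. Of all genes tested, 37.4% were higher than in immature neutrophils and 19.8% higher than in monocytes. The shared direction and the median ratios depend on which genes could be tested, and are a description. Myb was at 232 CPM in granule-rich barcodes (193 to 276), 15.7 CPM in immature neutrophils (4.27 to 40.1) and 0 UMIs in monocytes. Myc was at 792 CPM in granule-rich barcodes, 58.7 in immature neutrophils and 65.2 in monocytes. The rest had too few UMIs to be tested. Gata2, a stem cell and mast cell factor, had 21 UMIs and Hoxa9, a progenitor homeobox factor, 12 UMIs in granule-rich barcodes, with 0 in both other sets, and Mecom, a stem cell gene, had 0 UMIs.

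Lineage factors of both branches were present. Of the granulocytic factors, Cebpe was at 44.2 CPM in granule-rich barcodes (28.3 to 65.7), 137 CPM in immature neutrophils (95.5 to 191) and 3.26 CPM in monocytes, with 100 UMIs not reached. Gfi1 had 16 UMIs in granule-rich barcodes, 1 in immature neutrophils and 0 in monocytes. Cebpb, which encodes a factor of mature myeloid cells, was lower, at 805 CPM in granule-rich barcodes, 2393 in immature neutrophils and 2821 in monocytes.
Of the monocytic factors, Irf8, needed for monocytes and dendritic cells, was at 179 CPM in granule-rich barcodes (145 to 218), 11.7 CPM in immature neutrophils (2.42 to 34.3) and 323 CPM in monocytes (262 to 393). Its log2 ratio to immature neutrophils, where it had 3 UMIs, was 3.93 (2.34 to 6.23), and it was 1.81-fold lower than in monocytes, under the limit. Klf4, a monocyte factor, was at 46.0 CPM in granule-rich barcodes, 3.92 in immature neutrophils and 68.5 in monocytes. Spi1, which encodes PU.1, was at 319 CPM in granule-rich barcodes, 325 in immature neutrophils and 538 in monocytes, within 2-fold throughout.
Irf8 had a UMI in 20 of the 38 granule-rich barcodes and Gfi1 in 9, of which 3 had both. A barcode with 0 UMIs of such low genes is not shown to lack them at this depth.

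Receptor genes were low. None of the 12 growth factor receptor genes could be tested against immature neutrophils. Kit was at 71.8 CPM in granule-rich barcodes (51.1 to 98.2), 7.83 CPM in immature neutrophils (0.948 to 28.3) and 3.26 CPM in monocytes (0.0826 to 18.2). Cd34 was at 155 CPM in granule-rich barcodes (123 to 191), 3.92 CPM in immature neutrophils (0.0991 to 21.8) and 29.3 CPM in monocytes (13.4 to 55.7). Csf3r, the G-CSF receptor gene, was at 22.1 CPM in granule-rich barcodes (11.4 to 38.6) and 82.2 CPM in immature neutrophils (50.9 to 126). Csf1r, the M-CSF receptor gene, was at 53.4 CPM in granule-rich barcodes and 3.92 CPM in immature neutrophils, and it chose the monocytes. After each barcode was thinned to 1000 UMIs, Cd34 was seen in 3 of 38 granule-rich barcodes (7.89%, 1.66 to 21.4%). It was seen in 0 of 65 immature neutrophils (0 to 5.52%) and 1 of 70 monocytes (1.43%, 0.0362 to 7.7%), so the intervals overlapped.

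**Figure D4:**
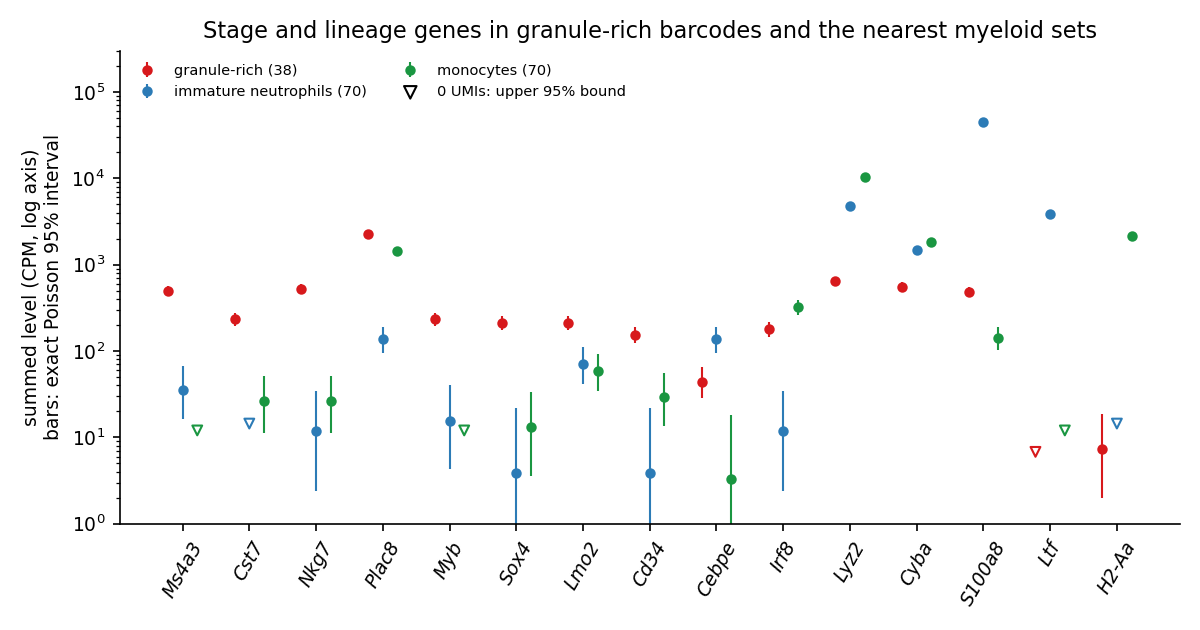
Points give the summed level (CPM, log axis) of 15 stage and lineage genes in 38 granule-rich barcodes, 70 immature neutrophils and 70 monocytes, with exact Poisson 95% intervals as bars and open triangles at the upper bound where a set had 0 UMIs. Ms4a3, Nkg7, Myb, Sox4 and Cd34 are highest in granule-rich barcodes, Irf8 lies between the other sets, and Lyz2, S100a8 and H2-Aa are far lower than in at least 1 of them. The low level of Ltf was fixed by the rule.

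Genes of later neutrophil maturation were low. Of 12 genes of secondary and tertiary granules outside the rule, 9 could be tested and all 9 were lower than in immature neutrophils, with a median log2 ratio of -6.54. The rule held the secondary granule genes Camp, Ngp and Ltf under 3 UMIs in members, and the immature neutrophils were chosen by 3 or more. The sets were thus already parted by genes of these granules, and the direction is a description. Lcn2, which encodes lipocalin 2, was at 105 CPM in granule-rich barcodes and 11575 CPM in immature neutrophils. S100a8, the other calprotectin subunit gene, was at 484 CPM in granule-rich barcodes and 45084 CPM in immature neutrophils, and 5 of the 38 barcodes had 5 or more of its UMIs. Retnlg, a resistin-like protein gene, and Mmp8, the neutrophil collagenase gene, had 0 UMIs in granule-rich barcodes, at least 2272-fold and 106-fold lower. Of the NADPH oxidase genes, which make the oxidant burst, 3 of 5 tested were lower than in immature neutrophils and 3 of 6 lower than in monocytes. Cybb, the catalytic subunit, was at 47.9 CPM in granule-rich barcodes, 474 in immature neutrophils and 492 in monocytes.

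Genes of S phase and of ribosome assembly were high. The summed S phase list had a median of 41.3 per 10000 UMIs in granule-rich barcodes, 3.83 in immature neutrophils and 4.14 in monocytes, and all 38 granule-rich barcodes had 5 or more UMIs of it. The G2 and M phase list had medians of 54.7, 19.7 and 9.02 in the same order. After thinning to 1000 UMIs, an S phase gene was seen in 97.4% of granule-rich barcodes, 44.6% of immature neutrophils and 41.4% of monocytes.
Of the S phase genes, 5 of 5 tested were higher than in immature neutrophils and 6 of 7 higher than in monocytes. Mcm6, a subunit of the replication helicase, was at 278 CPM in granule-rich barcodes, 15.7 in immature neutrophils and 65.2 in monocytes. Of the G2 and M phase genes, 3 of 11 tested were higher than in immature neutrophils, a share below the 37.4% of all genes, and 6 of 10 higher than in monocytes, above the 19.8% of all genes. Mki67, a proliferation marker, was at 214 CPM in granule-rich barcodes and 65.2 CPM in monocytes.
Of the ribosome assembly genes, 7 of 8 tested were higher than in immature neutrophils and 6 of 7 higher than in monocytes. Npm1, which encodes nucleophosmin, was at 2530 CPM in granule-rich barcodes, 838 in immature neutrophils and 968 in monocytes. Of the genes of the endoplasmic reticulum, where granule proteases are folded, 9 of 13 tested were higher than in immature neutrophils, above the 37.4% of all genes, and 2 of 14 higher than in monocytes, below the 19.8% of all genes. Calr, which encodes the chaperone calreticulin, was at 643 CPM in granule-rich barcodes, 86.2 in immature neutrophils and 192 in monocytes. None of the ribosome assembly and endoplasmic reticulum genes was lower in either comparison.

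**Figure D5:**
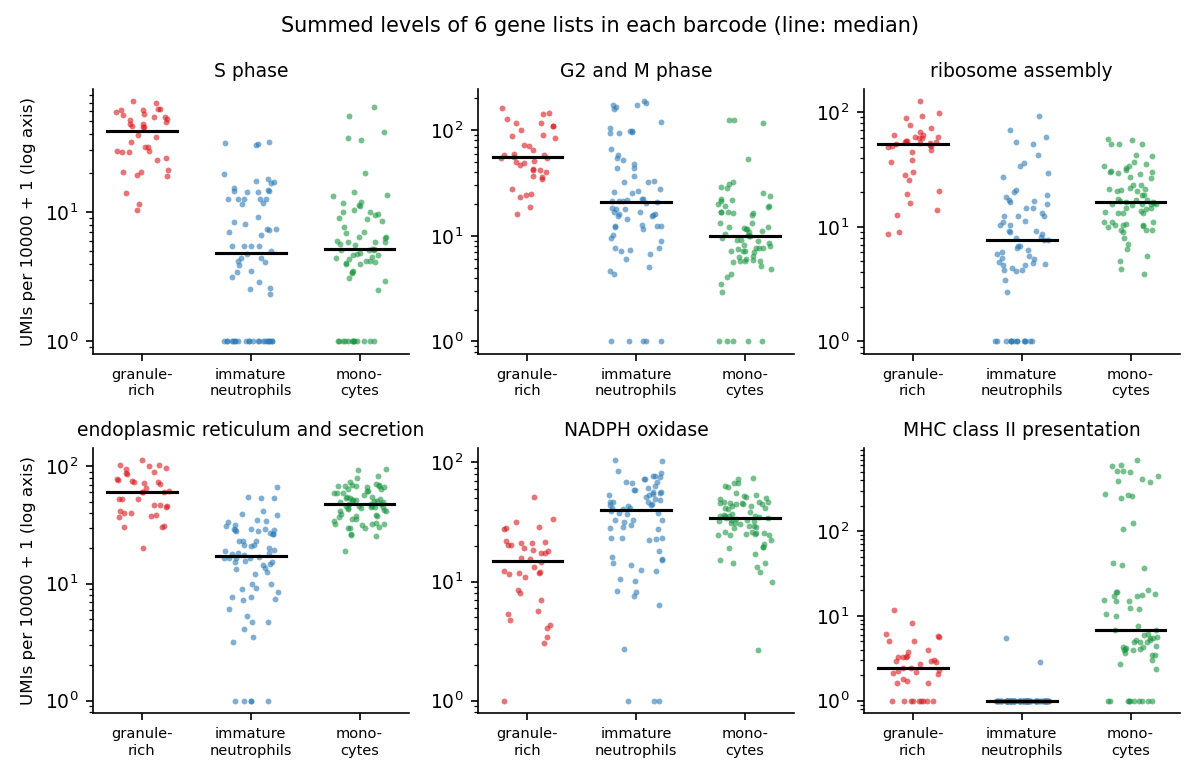
Each point is a barcode and gives the summed UMIs of a gene list per 10000 UMIs plus 1 (log axis), for 38 granule-rich barcodes, 70 immature neutrophils and 70 monocytes, with a line at the median. Granule-rich barcodes have the highest medians for S phase (41.3), G2 and M phase, ribosome assembly and endoplasmic reticulum genes, and the lowest for NADPH oxidase genes (14.0 against 39.1 and 33.2), and their MHC class II median (1.44) lies between that of monocytes (5.83) and that of immature neutrophils (0).

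Antigen presentation and monocyte genes were low against monocytes. All 6 MHC class II genes tested, of 7, were lower, with a median log2 ratio of -6.73. Cd74, the invariant chain gene, had 2 UMIs in granule-rich barcodes (3.68 CPM) and was at 7187 CPM in monocytes. H2-Aa had 4 UMIs (7.36 CPM) in granule-rich barcodes and was at 2162 CPM in monocytes. The monocyte level was uneven: 26 of 70 monocytes had 5 or more UMIs of the MHC class II list, whose level per 10000 UMIs had a median of 5.83 and reached 685. Of the monocyte markers that did not choose the monocytes, Ms4a6c, Fn1, Ly86 and Ctss were tested and all 4 were lower. Ctss, which encodes cathepsin S, was at 35.0 CPM in granule-rich barcodes and 897 CPM in monocytes.
Ms4a6c lay between the sets, at 177 CPM in granule-rich barcodes, 19.6 in immature neutrophils and 708 in monocytes. All 3 interferon response genes tested were lower than in monocytes, Ifitm3 being at 782 CPM in granule-rich barcodes and 5152 CPM in monocytes. Il1b, the interleukin 1 beta gene, was at 11 CPM in granule-rich barcodes, 955 in immature neutrophils and 877 in monocytes. Ccl4 was at 959 CPM in granule-rich barcodes and 125 CPM in immature neutrophils, with most of its UMIs in the Cd34 barcodes described above. Of the dissociation stress genes, 3 of 7 tested were higher than in immature neutrophils, near the 37.4% of all genes, and 4 of 9 were lower than in monocytes, above the 11.6% of all genes, and their part in the other differences was not tested.

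Outside the gene lists, the genes with the largest ratios held several roles. On the higher side against immature neutrophils they included the histone variant gene H2afy, at 1554 CPM in granule-rich barcodes and 102 CPM in immature neutrophils, Psmb8, an immunoproteasome subunit gene, at 558 and 66.6 CPM in the same order, Stmn1, a microtubule regulator of dividing cells, at 788 and 137 CPM in the same order, and Ptma, the prothymosin alpha gene, at 6140 and 1253 CPM. Against monocytes they included Hmgn2, a nucleosome-binding protein gene, at 1302 CPM in granule-rich barcodes and 170 CPM in monocytes, and Hsp90aa1, a chaperone gene, at 1143 and 248 CPM in the same order. On the lower side were G0s2, an inhibitor of fat breakdown, at 47.9 CPM in granule-rich barcodes and 4707 CPM in immature neutrophils, and Anxa1, the annexin A1 gene, at 249 and 1954 CPM in the same order. S100a6, a calcium-binding protein gene, was lower against both, at 226 CPM in granule-rich barcodes, 3532 in immature neutrophils and 2713 in monocytes.

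The full set of 187 members gave another picture, since most of its RNA came from Prtn3-only barcodes. Here a call asked for 20 or more barcodes of both sides in a library. Against immature neutrophils 2162 of 4312 genes were past 2-fold, 50.1%, with 43.2% higher and 6.93% lower. TMM scaling gave 1346 higher and 421 lower, 76.2% of called genes against 86.2%, with the median shifted by -0.28. Without library 2, 1133 genes were past 2-fold, and without library 4, 1377. Against monocytes 2054 of 4424 were past 2-fold, 46.4%, with 34.9% higher and 11.6% lower, and no library met the condition on barcodes. Without library 2 it was 768 genes. Of the 20 hepatocyte genes, 19 were higher than in monocytes and 6 higher than in immature neutrophils. The genes outside the lists with the largest ratios against monocytes included Hsd17b13, a liver lipid droplet enzyme gene, Agt, the angiotensinogen gene, and Mup1, a major urinary protein gene.
Against all other analysed barcodes, 1731 of 13508 genes were past 2-fold, 12.8%, with 1.75% higher and 11.1% lower. Of the 20 hepatocyte genes 0 were past 2-fold, with a median log2 ratio of -0.07. Of 52 G2 and M phase genes 23 were higher, and of 10 early myeloid genes 3 were higher and 1 lower. Of 7 natural killer cell and 7 stellate cell genes, all were lower.

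The rule left out 40 barcodes that met its first condition: 32 for Camp, Ngp and Ltf, 3 for the C1q genes and 5 for lymphocyte genes. Together they held 7985 of the 25553 granule UMIs of the matrix. Of the 32, 6 had 100 or more UMIs of the primary granule genes, 3 in library 2 and 3 in library 4. Their primary granule UMIs were 195, 598 and 844 in library 2, and 732, 1135 and 1473 in library 4. Beside these they had 180, 26 and 636 UMIs of Camp, Ngp and Ltf in library 2, and 116, 4 and 562 in library 4. Cd34 was at 0 UMIs and Ms4a3 at 2 to 39 UMIs in all 6, and hepatocyte RNA was under 1%. The other 26 were in library 4, and 25 of them had 1% or more hepatocyte RNA. A lymphocyte-gene barcode in library 4 held 1648 granule UMIs.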

How the data were processed

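Liver cell suspensions of 4 samples were sequenced with a droplet 3′ kit, per the labels' protocols. The deposited matrix holds UMI counts of 31053 genes in 38072 barcodes, made by the authors with Cell Ranger 6.0.1, per the file headers, on build mm9, per the submitters' processing notes. The annotation and how the libraries were joined are not given in the sources used here. Depth limits low genes: with a median of 1760 UMIs in other barcodes, a gene with 0 UMIs is not shown to be absent.

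Members were found by the rule. The members and gene lists were chosen with earlier results of these data known, and the granule-rich set after its values were seen. UMIs were summed over barcodes, scaled to CPM and given with exact Poisson 95% intervals, shares with Clopper-Pearson intervals, and ratios with a floor of 3 counts where a side had 0. Any gene of the granule, stage, transcription factor and receptor lists could be named with its level; not all are reported here. Up to 8 called genes of each other list and up to 10 outside the lists, with 300 or more UMIs, could be named by largest ratio. Doublets were scored with Scrublet (scanpy 1.11.5) per library at an expected rate of 8%: 3 members, 0 granule-rich barcodes and 1367 of all analysed barcodes scored above 0.25, and none were removed. Of 618 barcode sequences found in 2 or more libraries, 5 belonged to members and 0 to granule-rich barcodes. TMM factors came from edgeR 4.0.16 (R 4.3.3) as an alternative scaling with no test. Other steps used Python 3.11.15, NumPy 2.4.6, SciPy 1.17.1 and pandas 2.3.3, and figures matplotlib 3.10.9. The ratio step was tested on simulated counts. Alternatives were other UMI, mitochondrial and hepatocyte limits, doublet removal, each library left out, equal library weights and mean per-cell CPM.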

Additional observations from a re-analysis of the deposited data

How the results depend on the processing

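No paired analysis was possible because each condition has 1 sample and no result comes from a test. The planned comparison of tumor with normal liver was not run because no source pairs a suffix with a sample. The members' share of 0.517% became 0.205% at 5 or more granule UMIs, 0.119% at 10 or more, 0.105% with 2 or more genes added, and 0.686% with barcodes of 1000 or more UMIs. Leaving out a library gave 0.3 to 0.689%, the lowest without library 2. Genes past 2-fold in members against immature neutrophils (2162) numbered 4011 with 20 UMIs over both sides, 1093 at 5 or more granule UMIs, 640 at 10 or more and 549 in granule-rich barcodes. The number of genes tested changed with the UMI limit and the barcodes kept, so these counts are not shares. The 2162 genes were 50.1% of 4312 tested, and the 549 were 48.3% of 1136. Without a library the genes past 2-fold in members numbered 1133 to 2147, with 1133 without library 2 and 1377 without library 4. Against monocytes (2054, 46.4% of 4424 tested) the counts under the same settings were 4285, 1020, 499 and 392 (31.5% of 1245 tested). Without a library they were 768 to 1944, the lowest without library 2. Against all other barcodes (1731, 12.8% of 13508 tested) they were 2739 at 5 or more, 4426 at 10 or more and 4667 in granule-rich barcodes. They were 2698 without barcodes of 5% or more hepatocyte RNA, 1062 at equal library weights, and 1611 to 2443 without a library. Granule-rich barcodes against immature neutrophils (549) gave 2413 with 20 UMIs, and 252 to 547 without a library, the lowest without library 4. Against monocytes (392) they gave 1783 with 20 UMIs, and 236 to 345 without a library, with 255 without library 2 and 236 without library 4. Leaving out a library gave log2 ratios of -7.205 to 0.145 for Mup3 in granule-rich barcodes against immature neutrophils, reversed without library 3, and of -0.445 to 4.678 for S100a9 against monocytes, reversed without library 4. The cause was not tested. Leaving out barcodes or libraries leaves fewer UMIs and can change how many libraries must show the same direction. Against all other barcodes that condition covered 3 libraries for the 1731 genes and 2 for the 2443 without library 3. It covered 1 library for the 4426 genes at 10 or more granule UMIs. Of 2563 recomputed ratios of 177 named genes, 2337 kept direction and side of the limit, 224 kept direction only and 2 reversed. Equal weights could not be run for members against monocytes, since no library had 20 barcodes of both. All settings of the granule-rich set were chosen after seeing the data.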
